A study of Mus musculus with 8 samples.

Results

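The 10 genes described here encode transcription factors of the dentate granule neuron lineage and of its glial relatives: Prox1, the nuclear factor I genes Nfia, Nfib, Nfic and Nfix, the zinc finger genes Zbtb18 and Zbtb20, the paralogues Bcl11a and Bcl11b, and Tcf4. They were chosen by name out of 31053 genes in the deposited tables, all 10 were detected, and their levels were followed through 14 cell populations in each of 2 single-cell libraries. The libraries hold cells of the dentate gyrus of Nestin-GFP mice with a labelled age of 8 weeks. Control mice had a sham craniotomy, TBI mice had a craniotomy with a unilateral controlled cortical impact, and the gyri were taken 15 days after surgery. In both groups GFP is driven by control elements of the nestin gene, an intermediate filament gene of neural stem cells, and live GFP cells were sorted, so the sort set which cells could appear. Animals of a group were pooled, the labels list 4 sham and 4 TBI animals, and cells cannot be assigned to animals. Each condition is therefore 1 library without replicates, no test was possible between conditions, and every interval below is a 95% interval for counting error alone. In summed counts, a lower level cannot be told apart from fewer expressing cells.

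Newborn granule neurons arise in the adult dentate gyrus from radial glia-like (RG-like) progenitors, which divide, pass through neuroblast stages and mature into granule neurons. Prox1 is a homeobox factor that marks this lineage and is needed for granule neuron identity, and the NFI proteins bind a common palindromic DNA site and act in both neuronal maturation and the formation of astrocytes. Zbtb18 and Zbtb20 are repressors of the BTB zinc finger class with roles in hippocampal development, Bcl11a and Bcl11b are zinc finger subunits of the BAF chromatin remodelling complex, and Tcf4 is an E protein, the common dimer partner of proneural factors such as Neurod1.

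Cells were grouped without the 10 genes, so none of the groups was made by their levels. Of 8081 cells kept, 3048 from Control and 5033 from TBI, 6598 fell into the 14 named populations, 980 into clusters of low RNA content and 503 into clusters left unnamed. The lineage comprised 342 progenitors in cycle, 358 RG-like progenitors, 454 early, 410 intermediate and 372 late neuroblasts and 349 immature granule neurons. Beside it stood 103 Reln neurons, 143 stem-like astroglia, 867 astrocytes, 84 oligodendrocyte precursors (OPC), 1347 oligodendrocytes, 82 microglia, 834 endothelial cells and 853 mural cells. The cluster named RG-like progenitors had Ung, Ccnd1, Mcm3 and Mcm2 among its leading genes. In the clustering of all cells, 216 of these 358 cells lay in a cluster left unnamed. Its marker scores were 1.66 for early neuroblasts and 1.58 for RG-like progenitors. Median depth per cell was 6933 unique molecular identifiers (UMIs, 1 per captured RNA molecule) in Control and 5676 in TBI, and 3 cell barcodes occurred in both libraries. Levels are counts-per-million (CPM), the UMIs of a gene scaled to a fixed total of UMIs in each population, leaving out the nuclear RNA Malat1. The capture reads the 3′ end of an RNA, so a level is compared between populations and not between genes. The 8 markers of progenitors in cycle summed to 405 CPM in Control and 429 CPM in TBI in RG-like progenitors. Over both libraries Eomes, a marker of early neuroblasts, was at 720 CPM in RG-like progenitors and 885 CPM in early neuroblasts. The 6 naming markers of intermediate neuroblasts summed to 1177 CPM in Control and 1141 CPM in TBI in that population. They summed to 1453 and 1275 CPM in late neuroblasts and to 1228 and 1122 CPM in immature granule neurons. RNA of nestin itself, Nes, was at 70.2 CPM in Control and 72.0 CPM in TBI in RG-like progenitors, at 420.5 and 465 CPM in endothelial cells and at 233 and 297 CPM in mural cells.

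**Figure D1:**
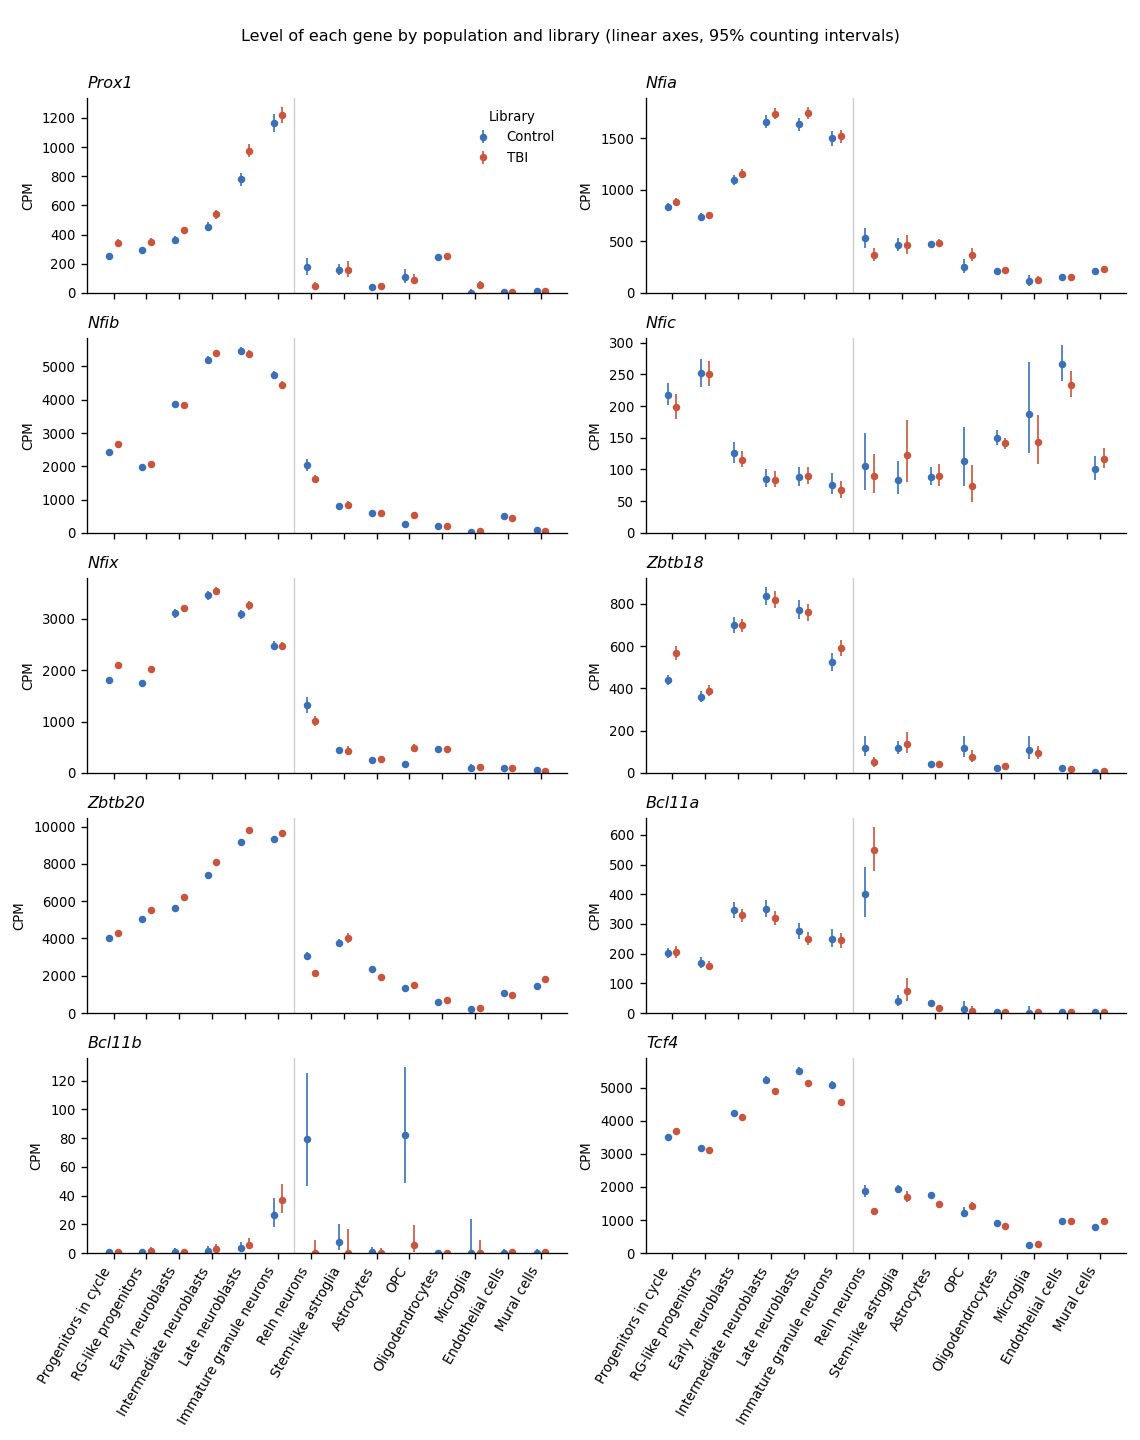
Level of each of the 10 genes in CPM (linear axis from 0) for the 14 populations, with Control in blue, TBI in red and 95% counting intervals as bars. The 6 lineage stages stand left of the grey line. From RG-like progenitors on, Prox1 climbed there to 1164 CPM in Control and 1220.1 CPM in TBI in immature granule neurons. Nfic had its lowest lineage values at that stage.

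Prox1 had the steepest climb along the lineage among the members with substantial counts. The gene lies on chromosome 1 (GRCm38 chr1:190118035-190170714, minus strand). In Control its level was 256 CPM in progenitors in cycle, 293 in RG-like progenitors, 361 in early, 455 in intermediate and 778 in late neuroblasts and 1164 CPM in immature granule neurons. In TBI the same populations had 344, 352, 428, 539.5, 976 and 1220.1 CPM. The order was the same in both libraries at every step. Progenitors in cycle are listed before RG-like progenitors here, and which of these comes first was not tested. The intervals of neighbouring stages did not overlap when the libraries were summed, although RG-like progenitors and progenitors in cycle were not told apart in TBI alone, with a ratio of 1.02 (0.93 to 1.13). The largest step was that from intermediate to late neuroblasts, 1.71-fold in Control and 1.81-fold in TBI. Immature granule neurons exceeded RG-like progenitors 3.97-fold in Control (interval 3.60 to 4.39) and 3.47-fold in TBI (3.20 to 3.76).

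The sequence before an annotated start of Prox1 is shown because this member rose along the lineage in both libraries. The sequence before a start inside the Zbtb20 gene is shown because Zbtb20 rose along the same stages from another chromosome. Both are RefSeq windows of 250 bases that end at an annotated start (GRCm38.p6), they overlap no GENCODE exon, and capitals mark each E-box, CANNTG, the motif bound by proteins such as Tcf4 and Neurod1, which reads the same on both strands. Windows were found for 8 of the 10 members. RefSeq has a further Prox1 window, chr1:190169516-190169765 on the same strand, which is not shown because it overlaps an exon of Gm28172, and it held 0 E-boxes.
Prox1, chr1:190170828-190171077, minus strand: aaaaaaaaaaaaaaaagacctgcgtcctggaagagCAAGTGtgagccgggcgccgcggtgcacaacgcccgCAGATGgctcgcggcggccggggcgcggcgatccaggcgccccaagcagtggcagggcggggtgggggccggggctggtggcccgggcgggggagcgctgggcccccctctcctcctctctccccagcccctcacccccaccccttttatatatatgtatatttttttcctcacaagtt
Zbtb20, chr16:43247034-43247283, plus strand: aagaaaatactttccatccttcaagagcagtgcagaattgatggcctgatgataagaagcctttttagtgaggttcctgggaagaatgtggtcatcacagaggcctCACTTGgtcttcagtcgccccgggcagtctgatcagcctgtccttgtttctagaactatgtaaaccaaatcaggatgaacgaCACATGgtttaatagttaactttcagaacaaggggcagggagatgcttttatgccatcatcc
Each window shown held 2 E-boxes, and 66.2% of 32851 such windows on the other chromosomes held at least 1. The NFI half-site TTGGC, searched on both strands, was in neither window shown, nor in the further Prox1 window, and in 41.5% of the 32851 windows. These matches are descriptions of letters and not of binding.

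Prox1 was also measurable outside the neuronal lineage. Oligodendrocytes had 245 CPM in Control and 249.7 CPM in TBI, and stem-like astroglia had 158 and 155 CPM. Astrocytes had 38.5 and 43.8 CPM, and their ratio to stem-like astroglia was 0.24 (0.17 to 0.34) in Control and 0.28 (0.18 to 0.45) in TBI. Mural cells had 11.2 and 10.3 CPM and endothelial cells 6.73 and 5.09 CPM, the lowest levels of the 14 populations when the libraries were summed. Microglia had 0 UMIs in Control and 21 in TBI, where the floor of 3 UMIs allows up to 19.5 CPM in Control.

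Neuroblast RNA was low where oligodendrocytes had Prox1. Dcx, the microtubule protein of neuroblasts, stood at 11.3 and 17.5 CPM in oligodendrocytes of Control and TBI, against 175 and 198 CPM in RG-like progenitors. Prox1 had 2171 and 1424 UMIs per 100 Dcx UMIs in oligodendrocytes and between 46.1 and 177 across the 6 lineage stages of both libraries. The 6 markers of early neuroblasts, none of them at 0, summed to 145 and 163 CPM in oligodendrocytes and to between 2834 and 5765 CPM in the lineage. The 6 markers of immature granule neurons, none of them at 0, summed to 1373 and 1533 CPM in oligodendrocytes, above the 1007 and 1029 CPM of late neuroblasts and below the 1798 and 1949 CPM of immature granule neurons. Of these sums in oligodendrocytes, 1356 and 1519.5 CPM were Stmn4, a stathmin gene, and the other 5 markers had 1.27 to 6.90 CPM each. Their part in the Prox1 level was not tested. Over the 5 oligodendrocyte clusters Prox1 ranged from 223 to 272 CPM in Control and from 237 to 265 CPM in TBI.

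**Figure D2:**
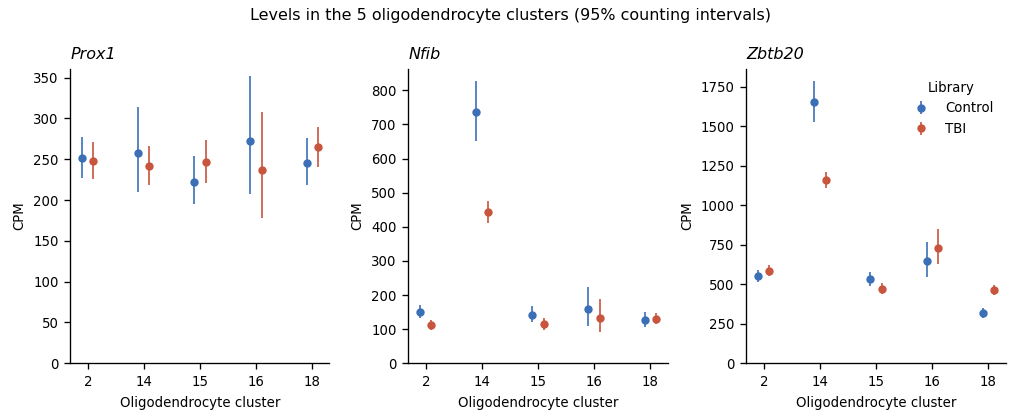
Levels of Prox1, Nfib and Zbtb20 in CPM (linear axes from 0) in the 5 oligodendrocyte clusters, with Control in blue, TBI in red and 95% counting intervals as bars. Prox1 lies between 223 and 272 CPM in all 5 clusters and both libraries, while Nfib reaches 735 CPM in cluster 14 of Control.

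Cluster 14 differed from the other 4 oligodendrocyte clusters in Nfib and Zbtb20. It held 41 Control and 222 TBI cells and 50 of the 56 called doublets of this population. Nfib was at 735 CPM in Control and 443 CPM in TBI in this cluster, against 112 to 160 CPM in the other clusters of both libraries. Zbtb20 was at 1656 and 1158 CPM there, and its values in the other clusters ran from 318 to 732 CPM. Clustered without called doublets, oligodendrocytes had a summed Nfib level of 121 CPM in place of 196 CPM, and a Prox1 level of 247 CPM in place of 248 CPM.

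Among the NFI genes, Nfia, Nfib and Nfix peaked in neuroblasts and Nfic ran the other way. Nfib, on chromosome 4 (chr4:82290173-82705750, minus strand), had 2419.9, 1979, 3865, 5208, 5466 and 4745 CPM over the 6 stages in Control and 2655, 2056, 3851, 5394, 5388 and 4443 CPM in TBI. Late neuroblasts were highest in Control, at a ratio of 1.05 (1.02 to 1.08) to intermediate neuroblasts, and the same stages were not told apart in TBI. The drop from late neuroblasts to immature granule neurons was present in both libraries, at ratios of 0.87 and 0.82.

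Nfia, also on chromosome 4 (chr4:97772734-98118874, plus strand), had 834, 736, 1089, 1657, 1632 and 1498 CPM in Control and 880.3, 753, 1156, 1736, 1744 and 1516 CPM in TBI. Intermediate and late neuroblasts were thus not told apart, and the ratio of immature granule neurons to late neuroblasts was 0.92 (0.86 to 0.98) in Control and 0.87 (0.82 to 0.92) in TBI. In astroglia Nfia was level, with 467 and 459.6 CPM in stem-like astroglia and 472 and 479 CPM in astrocytes.

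Nfix, a factor tied to the quiescence of neural stem cells (chr8:84699876-84800344, minus strand), was highest in intermediate neuroblasts in both libraries. It had 1799, 1753, 3101, 3452, 3083 and 2473 CPM in Control and 2100.2, 2024, 3204, 3536, 3257 and 2464 CPM in TBI. Early neuroblasts exceeded RG-like progenitors 1.77-fold and 1.58-fold, and immature granule neurons fell below late neuroblasts, with ratios of 0.80 and 0.76. Outside the lineage, Nfix was higher in oligodendrocytes, at 460.1 and 467 CPM, than in astrocytes, at 249.9 and 263 CPM.

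Nfic (chr10:81396186-81455635, minus strand) was the only member below its RG-like level by more than 1.5-fold in immature granule neurons of both libraries. Control had 218, 252, 126, 85.5, 88.1 and 75.8 CPM over the stages, and TBI had 198, 251, 115, 83.8, 89.4 and 67.6 CPM. Most of the difference lay at the step from RG-like progenitors to early neuroblasts, with ratios of 0.50 and 0.46. Endothelial cells reached 266 CPM in Control and 234 CPM in TBI, which was within the interval of RG-like progenitors when both libraries were summed. From the summed level of mural cells down to that of immature granule neurons, neighbouring populations overlapped in their intervals.

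Zbtb18 and Zbtb20 differed in where they peaked. Zbtb18 (chr1:177442351-177450764, plus strand) had 440.0, 361, 697, 835, 770.3 and 523 CPM in Control and 567, 389, 698, 819.8, 759.6 and 592 CPM in TBI, with its highest values in intermediate neuroblasts. It was low in every population outside the lineage, from 119 CPM in Reln neurons of Control and 137 CPM in stem-like astroglia of TBI down to 6.89 and 11.4 CPM in mural cells.

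Zbtb20 (chr16:42875881-43642602, plus strand) rose from RG-like progenitors to a plateau. Its levels were 4044, 5052, 5639.7, 7382, 9176 and 9334 CPM in Control and 4298, 5506, 6234, 8097, 9839.7 and 9653 CPM in TBI. Late neuroblasts and immature granule neurons overlapped in their intervals and changed places between the libraries. Stem-like astroglia had 3779.9 and 4009 CPM, astrocytes 2364 and 1913 CPM and mural cells 1472 and 1813 CPM.

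The paralogues Bcl11a and Bcl11b had different distributions. Bcl11a (chr11:24078056-24174123, plus strand) was highest in Reln neurons, at 400.1 CPM in Control and 549 CPM in TBI. Over the lineage it had 202, 169, 346, 351, 275 and 251 CPM in Control and 205, 159, 329, 319.6, 251 and 244 CPM in TBI. It doubled from RG-like progenitors to early neuroblasts, 2.05-fold and 2.06-fold, and was lower again in late neuroblasts. Oligodendrocytes, microglia, endothelial and mural cells each had between 1.79 and 3.71 CPM when the libraries were summed.

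Bcl11b (chr12:107910403-108003602, minus strand) was sparse and appeared mainly at the end of the lineage. It had 26.8 CPM from 30 UMIs in Control and 37.0 CPM from 58 UMIs in TBI in immature granule neurons, carried by 21 of 124 and 39 of 225 cells. In the other 5 lineage stages the counts were 1 to 5 UMIs in Control and 1 to 11 UMIs in TBI. The ratio of immature granule neurons to late neuroblasts was 8.08 in Control and 6.33 in TBI. Against RG-like progenitors, with 1 and 4 UMIs, the ratio was 53.4 (8.87 to 2177) and 22.9 (8.47 to 86.8).

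Single cells set the other Bcl11b values. In Reln neurons of Control 18 UMIs came from 2 cells, 17 of them from 1 cell, and the 75 Reln neurons of TBI had 0 UMIs, which allows up to 7.45 CPM. In OPC of Control 12 of the 18 UMIs were in 1 of 28 cells, and the 56 OPC of TBI had 2 UMIs. The high Control levels of Bcl11b in these populations, 79.1 and 81.8 CPM, are therefore levels of 1 cell each to a large part.

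Tcf4, on chromosome 18, rose from RG-like progenitors to late neuroblasts and was lower again in immature granule neurons. Control had 3503, 3175, 4242, 5248, 5515 and 5085 CPM over the lineage, and TBI had 3681, 3109, 4127, 4892, 5139.8 and 4559 CPM. Late neuroblasts were highest in both libraries, and the ratio of immature granule neurons to them was 0.92 and 0.89. The lowest summed level among the 14 populations was that of microglia, with 234 and 279 CPM.

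The contrast of immature granule neurons with RG-like progenitors was counted for all members at a limit of 1.5-fold in both libraries. Higher were 5 of 10 members, Prox1, Nfia, Nfib, Zbtb20 and Bcl11b, while 16.2% of 13788 genes with a defined ratio were higher by the same rule. Lower was 1 of 10 members, Nfic, while 26.9% of genes were lower. With at least 100 UMIs in each library, a limit added after the data were seen, Bcl11b could no longer be compared and 4 of 9 members were higher against 16.5% of 5548 genes, and 1 of 9 lower against 19% of them. The call of Bcl11b rests on 1 and 4 UMIs in RG-like progenitors. The median log2 ratio of the 9 compared members was 0.73, and that of all genes compared under this limit was -0.04.

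The remaining 4 members did not pass in both libraries. Ratios in Control and TBI were 1.60 and 1.47 for Tcf4, 1.49 and 1.53 for Bcl11a, 1.45 and 1.52 for Zbtb18, and 1.41 and 1.22 for Nfix. For Zbtb18, Bcl11a and Nfix this contrast of end points misses the peak, which lay in early or intermediate neuroblasts.

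**Figure D3:**
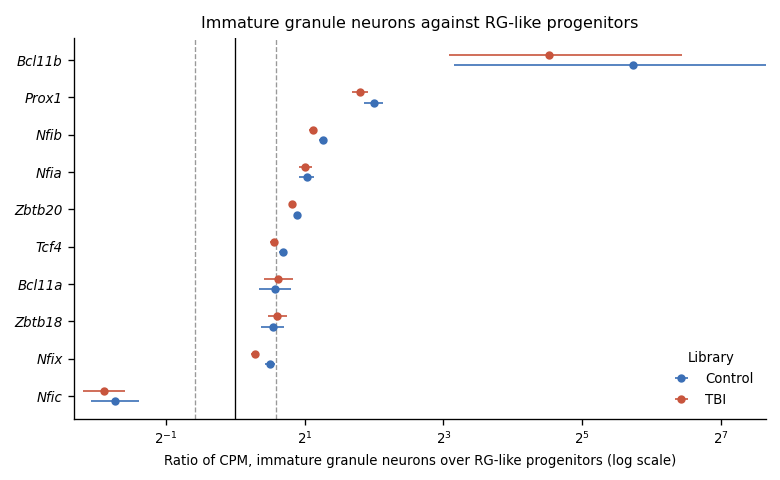
Ratio of the CPM of immature granule neurons to that of RG-like progenitors for each member (log axis), with Control in blue, TBI in red, 95% counting intervals as bars and dashed lines at 1.5-fold in each direction. The 2 libraries gave Prox1 ratios of 3.97 and 3.47 and Nfic ratios of 0.30 and 0.27, and the Control interval of Bcl11b runs past the right edge.

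Prox1 was also seen in more cells at the end of the lineage. Because depth differed between populations, each cell was thinned to 2000 UMIs, which left out 351 Control and 738 TBI cells with fewer. Prox1 was then seen in 41.8% of RG-like progenitors of Control and 45.2% of TBI, and in 86.3% and 87.1% of immature granule neurons. In mural cells, which should lack Prox1, the share was 1.24% in Control and 2.24% in TBI, at median depths before thinning of 4056.5 and 3265 UMIs against 9482 and 7229 UMIs in immature granule neurons. Oligodendrocytes were at 32.6% and 32.8%, above the share of mural cells. Microglia had 0 CPM of Prox1 in Control and 51.9 CPM in TBI, against 11.2 and 10.3 CPM in mural cells. Mural cells may thus understate the background. Without thinning, 99.4% of immature granule neurons, 91.9% of RG-like progenitors and 3.28% of mural cells had a Prox1 UMI over both libraries.

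Zbtb18 and Bcl11a were seen in the largest shares of cells in the middle of the lineage. Zbtb18 rose from 48.9% of RG-like progenitors in Control and 51.6% in TBI to 84.4% and 80.1% of intermediate neuroblasts, and stood at 57.3% and 60.4% of immature granule neurons. Its share in mural cells, the population with its lowest summed level, was 1.65% and 1.55%. Microglia had 110 CPM of Zbtb18 in Control and 94.0 CPM in TBI, against 6.89 and 11.4 CPM in mural cells. Bcl11a was seen in 24.8% and 24.0% of RG-like progenitors, 46.8% and 47.0% of early neuroblasts and 38.7% and 32.9% of immature granule neurons, against 0.413% and 0.344% of mural cells. For Nfic the share was 31.2% and 32.7% of RG-like progenitors and 13.7% and 11.6% of immature granule neurons, the latter below the 17.4% of mural cells in both libraries, and no population served as one that lacks Nfic. Bcl11b was seen in 4.84% and 7.56% of thinned immature granule neurons and in none of the thinned RG-like progenitors. Without thinning it was seen in 60 of 349 immature granule neurons and 4 of 358 RG-like progenitors.

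**Figure D4:**
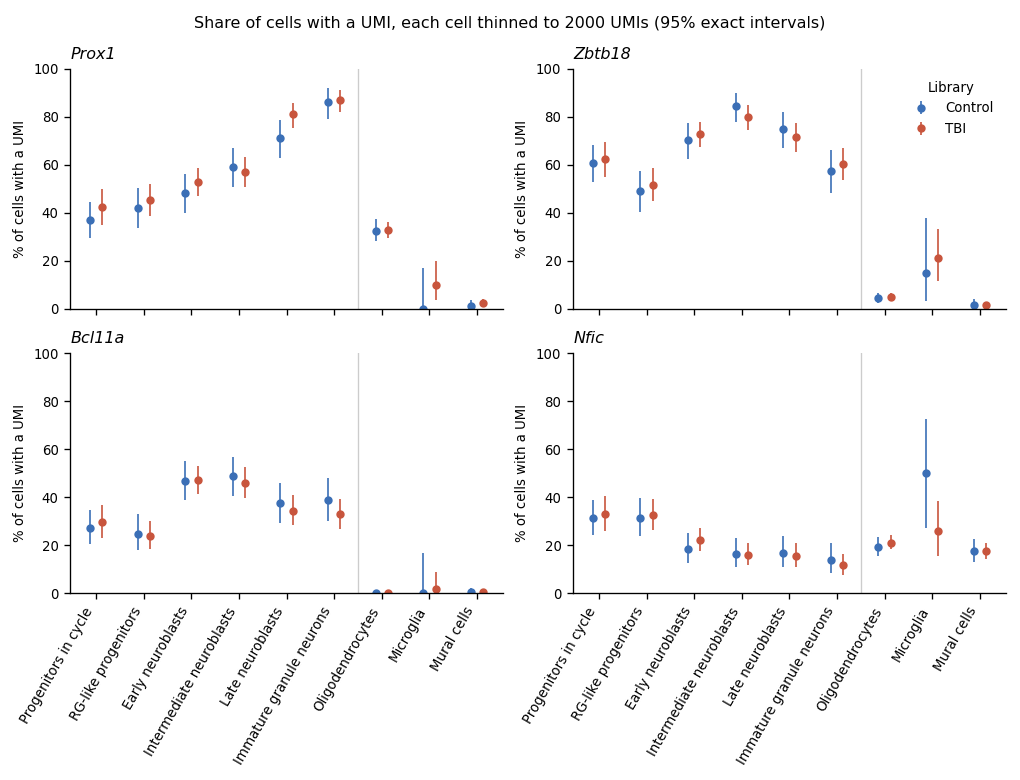
Percentage of cells with at least 1 UMI of Prox1, Zbtb18, Bcl11a and Nfic after thinning each cell to 2000 UMIs (linear axis, 0 to 100%), with Control in blue, TBI in red and 95% exact binomial intervals as bars. The 6 lineage stages stand left of the grey line, and Prox1 reaches 86.3% and 87.1% in immature granule neurons.

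Between the libraries, no compared member passed 1.5-fold within the lineage. Over 54 pairs of a member and a lineage stage with enough UMIs (100 in all and 10 in each library), the ratio of TBI to Control ran from 0.89 to 1.34. Past 1.5-fold in either direction were 0 of these pairs and 2.59% of all gene and stage pairs, which does not set the members apart. Counting intervals excluded 1 for 6, 3, 3, 4, 5 and 4 of the 9 members compared at the 6 stages, in lineage order. Over all 14 populations, 2 of 101 pairs were higher in TBI and 1 was lower, against 2.21% and 1.91% of all gene and population pairs. A ratio here compares 2 libraries and not the conditions, since library, surgery and sequencing cannot be told apart.

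Prox1 was above its Control level in the TBI library at all 6 stages. The ratios were 1.34 (1.21 to 1.49) in progenitors in cycle, 1.20 (1.08 to 1.34) in RG-like progenitors, 1.19 (1.08 to 1.30) in both early and intermediate neuroblasts, 1.25 (1.16 to 1.35) in late neuroblasts and 1.05 in immature granule neurons. Zbtb20 was above 1 at all stages too, from 1.03 in immature granule neurons to 1.11 in early neuroblasts, and Nfia from 1.01 to 1.07. Ratios above 1 at all 6 stages were found for 3 of 9 members and for 6.98% of 4286 genes compared at every stage, and ratios below 1 for 0 members and 6.53% of genes. Intervals above 1 at 5 or more stages were found for 2 of 9 members, Prox1 and Zbtb20, and for 0.653% of genes, and intervals below 1 for 0 members and 1.21% of genes. These counts over stages were not among the planned comparisons. Prox1 had 5 such stages, exactly the limit, so the contrast with all genes is no test of Prox1. An interval narrows with the counts, and Zbtb20 has the highest counts among the members. The 6 values of a gene share the same pair of libraries and are not 6 independent comparisons.

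Neuronal markers are given beside these ratios, and their part in them was not tested. Dcx was at 754 CPM in Control and 701 CPM in TBI in early neuroblasts and at 872 and 911 CPM in late neuroblasts. Neurod1, the bHLH factor of differentiating granule neurons, was at 1193 and 1195 CPM in late neuroblasts. Calb2, the calretinin gene and a naming marker of late neuroblasts, was at 1612 and 1754 CPM in them. It was higher in immature granule neurons, at 1867 and 2015 CPM. The 6 late neuroblast markers summed to 2451 and 2546 CPM in late neuroblasts and to 2834 and 2986 CPM in immature granule neurons. In progenitors in cycle, where the Prox1 ratio was highest, Dcx was at 233 CPM in Control and 305 CPM in TBI, Neurod1 at 233 and 239 CPM and Stmn2, a stathmin gene of neurons, at 26.2 and 23.9 CPM. Zbtb18 had a ratio of 1.29 (1.19 to 1.40) and Nfix one of 1.17 (1.12 to 1.22) in the same cells. Of the pair of clusters in this population, that led by Cdc20, Cenpa and Ccnb1 had a Prox1 ratio of 1.42 and that led by histone genes one of 1.17. In RG-like progenitors Dcx was at 175 CPM in Control and 198 CPM in TBI, and Neurod1 at 86.3 and 69.9 CPM. Stmn2 was at 3.51 and 27.1 CPM there, Calb2 at 7.02 and 16.6 CPM and Stmn4 at 7.02 and 32.3 CPM.

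Tcf4 went the other way late in the lineage. Its TBI to Control ratio was 1.05 in progenitors in cycle, 0.93 in intermediate and late neuroblasts and 0.90 in immature granule neurons, with intervals clear of 1. Nfib was at 0.94 (0.90 to 0.97) in immature granule neurons. Nfic and Bcl11a had ratios below 1 at 5 of 6 stages, and 0 of these 12 intervals excluded 1.

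**Figure D5:**
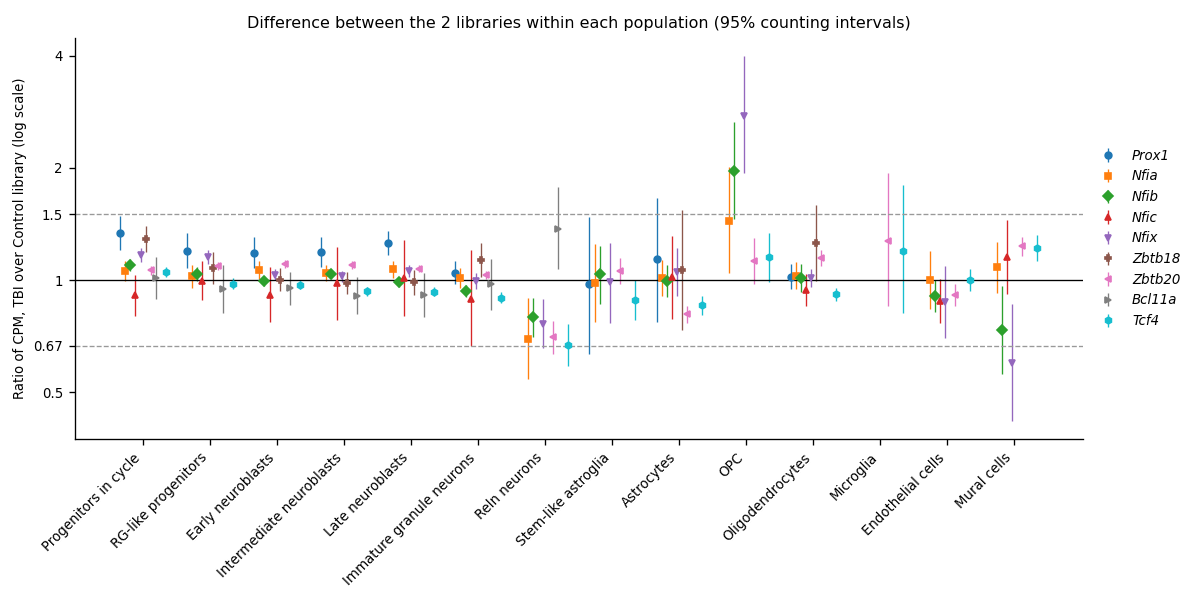
Ratio of the TBI to the Control CPM of each member in each population with enough UMIs (log axis), with 95% counting intervals as bars and dashed lines at 1.5-fold in each direction. Lineage stages lie between 0.89 and 1.34, and Nfix and Nfib in OPC and Nfix in mural cells are the pairs past the dashed lines.

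The 2 pairs past 1.5-fold upwards were both in OPC, the population with 28 Control and 56 TBI cells. Nfix had 39 UMIs and 177 CPM in Control and 178 UMIs and 487 CPM in TBI, a ratio of 2.75 (1.93 to 3.99). Nfib had 60 UMIs and 273 CPM in Control and 195 UMIs and 534 CPM in TBI, a ratio of 1.96 (1.46 to 2.66). In this population 19.4% of 1148 genes were higher in TBI and 10.7% lower by the same rule. Of the Nfix UMIs in TBI, 102 of 178 were in 3 cells, and of the Nfib UMIs 113 of 195, while the median cell of TBI had 1 UMI of each. In cells thinned to 2000 UMIs neither pair was past 1.5-fold with enough counts.

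Marker levels of OPC differed between the libraries as well. The 8 OPC markers summed to 5014 CPM in Control and 8036 CPM in TBI, with none at 0. The 8 oligodendrocyte markers summed to 23292 CPM in Control, with 1 at 0, and to 5601 CPM in TBI. The 6 early neuroblast markers summed to 109 CPM in Control, with 4 at 0, and 413 CPM in TBI, with 1 at 0. The 6 immature granule neuron markers went the other way, at 1095 CPM in Control and 575 CPM in TBI. Intermediate neuroblast markers summed to 391 and 378 CPM and late neuroblast markers to 241 and 271 CPM. Median mitochondrial shares of the cells were 9.83% and 4.60%. Their part in the Nfix and Nfib ratios was not tested.

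The pair past 1.5-fold downwards was Nfix in mural cells, at 55.9 CPM in Control and 33.6 CPM in TBI from 65 UMIs in each library, a ratio of 0.60 (0.42 to 0.86), where 5.03% of 5427 genes were lower and 7.19% higher. In the mural cluster led by Atp13a5 and Vtn the levels were 31.5 and 30.4 CPM, and in that led by Kcnj8 they were 34.9 and 35.2 CPM. The cluster led by the smooth muscle genes Acta2, Tagln and Myh11 had 82.2 CPM in Control and 48.7 CPM in TBI. That cluster held 51 of 250 Control and 40 of 603 TBI mural cells. Some marker lists of other cells were lower in mural cells of TBI as well, and others were higher. The 6 intermediate neuroblast markers summed to 219 CPM in Control and 319 CPM in TBI, with 1 at 0 in each. The 6 early neuroblast markers summed to 104 and 117 CPM, with 1 and 2 at 0. The 8 astrocyte markers summed to 321 CPM in Control and 125 CPM in TBI and the 8 oligodendrocyte markers to 669.6 and 330.1 CPM, with none at 0, and the 8 markers of RG-like progenitors to 1903 and 849 CPM, with 2 and 1 at 0. Their part in the Nfix ratio was not tested. Without called doublets, without integration and in thinned cells Nfix in mural cells was not among the pairs past 1.5-fold with enough counts.

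In Reln neurons all 6 compared members were off 1 beyond counting error. Zbtb20 had 3064 CPM in Control and 2154 CPM in TBI, and Tcf4 1886 and 1262 CPM, ratios of 0.70 and 0.67. Of the Control UMIs, 3 of the 28 cells held 416 of 697 for Zbtb20, 258 of 429 for Tcf4 and 264 of 463 for Nfib. The median cell of Control and TBI had 11.5 and 8 UMIs of Zbtb20, 6 and 4 of Tcf4 and 8 and 6 of Nfib, at median depths of 8691.5 and 5941 UMIs. Bcl11a alone was higher in TBI, with a ratio of 1.37 (1.07 to 1.77). Clustered without called doublets, Nfia, Nfib, Zbtb20 and Tcf4 were past 1.5-fold lower in this population. In the 28 Control and 75 TBI cells the 6 early neuroblast markers summed to 611 and 283 CPM, with 1 at 0 in each. Dcx was at 141 and 44.7 CPM and Stmn2 at 1125 and 1128 CPM. Their part in the library ratios of Reln neurons was not tested. Prox1 in this population, 176 and 47.2 CPM, came from 4 Control and 3 TBI cells.

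In astrocytes Zbtb20 was at 2364 CPM in Control and 1913 CPM in TBI, a ratio of 0.81 (0.77 to 0.85), and Tcf4 at 1746 and 1493 CPM, a ratio of 0.86 (0.81 to 0.91). The ratio of Zbtb20 was 0.73 in the cluster led by Syne1, which held 230 Control and 140 TBI cells, and 0.92 and 0.88 in the other astrocyte clusters. Tcf4 had ratios of 0.79, 0.95 and 1.04 in the same clusters. Bcl11a in astrocytes, 32.5 and 16.6 CPM, rested on 59 and 19 UMIs. Nfia, Nfib, Nfic and Nfix had ratios near 1 in astrocytes, with intervals that included it.

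Across the 14 populations the members other than Nfic and Bcl11b correlated with each other. The Pearson correlation of log2(CPM + 10) ran from 0.72 to 0.97 over the 28 pairs of the other 8 members and from -0.57 to 0.30 over the 17 pairs with Nfic or Bcl11b. The pair with the highest value was Zbtb20 and Tcf4, 0.97. Genes outside the 10 came as close. For Prox1, Nfib, Nfix, Zbtb18 and Bcl11a the nearest gene was not a member, and for Nfia, Zbtb20 and Tcf4 it was. The correlations thus do not set the members apart from other genes. Few UMIs limit the values of Bcl11b, whose own levels correlated at 0.38 between the 2 libraries. Those of the other members correlated at 0.91 to 0.99. These are descriptions over populations that share 2 libraries and a common split between neuronal and other cells.

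The genes with the most similar pattern to each member were taken from 5444 genes over the same 14 populations. For Prox1 they were Prox1os, a transcript antisense to Prox1 that overlaps it, Spast and Hist3h2ba, with correlations of 0.93, 0.93 and 0.92. For Nfia they were Nol4, Dbn1 and Gm17750 (0.96 each), for Nfib Epha4, Vangl2 and Fam171a2 (0.94 to 0.96), and for Nfix Elavl2, Pgap1 and Hist3h2ba (0.95 to 0.96). Nfic had weaker neighbours, Raly, Serf2 and Mcm3 (0.79 to 0.81). Zbtb18 was nearest to Ago1, Med22 and Rnmt (0.96 to 0.97), Zbtb20 to Rbm4b, Zfp266 and Arid2 (0.94 to 0.97), and Tcf4 to Zfp266 and Mpnd (0.97 and 0.95). Bcl11a went with Map9, Crmp1 and Ttc9b (0.94 to 0.96) and Bcl11b with Scn2a, Camk2b and Dpp6 (0.91 to 0.94). The neighbours of Bcl11b rest on its few UMIs. Camk2b, a naming marker of immature granule neurons, had 62 UMIs in OPC of Control and 6 in TBI.

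Other factors of the lineage were counted by the same rule with at least 100 UMIs in each library. Of 24 further transcription factors, 22 had enough UMIs, 11 were higher and 7 lower in immature granule neurons than in RG-like progenitors, with a median log2 ratio of 0.59. Of all 5548 genes compared under this limit, 16.5% were higher and 19% lower. The bHLH factor Neurod2 was at 225 CPM in immature granule neurons and 1.12 CPM in RG-like progenitors, and Myt1l, a zinc finger factor of neurons, was at 633 CPM in immature granule neurons, with ratios to RG-like progenitors of 97.97 in Control and 34.6 in TBI. The bHLH factor Bhlhe22 was at 273 CPM in immature granule neurons and 10.5 CPM in RG-like progenitors. On the falling side, the proneural factor Neurog2, also a naming marker of RG-like progenitors, was at 12.6 CPM in immature granule neurons and 382 CPM in RG-like progenitors.

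Partners of Tcf4 changed in both directions. Of 10 E proteins, Id inhibitors and proneural partners, 3 of which are also among the 24 factors, 9 were compared, 3 were higher and 5 lower, with a median log2 ratio of -1.24. The shares of all genes compared were 16.5% higher and 19% lower. Besides Neurod2 and Neurog2, Neurod1 was at 1082 CPM in immature granule neurons and 77.2 CPM in RG-like progenitors. Id2, an inhibitor of E proteins that was picked after its values were seen, was at 848 CPM in immature granule neurons against 128 CPM in RG-like progenitors. The other Id genes compared went the other way, Id1 at 12.6 against 81.5 CPM and Id4 at 8.19 against 82.6 CPM. Among 19 BAF subunits, the complex that takes up Bcl11a and Bcl11b, 16 were compared, 3 were higher and 2 lower, with a median log2 ratio of 0.14. Beside the shares of all genes, 16.5% and 19%, these BAF counts do not set the subunits apart. Dpf3 (89.3 against 4.25 CPM), Actl6b (113 against 16.3 CPM) and Dpf1 (76.3 against 20.8 CPM), subunits of the neuronal form of the complex, were the higher ones. Actl6a, the counterpart of Actl6b in dividing progenitors, was at 57.7 CPM in immature granule neurons and 144 CPM in RG-like progenitors.

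Markers of mature granule, CA pyramidal and inhibitory neurons and of lymphatic endothelium were low in the lineage. Of 7 genes of mature granule neurons, 4 of CA pyramidal neurons, 9 of inhibitory neurons and 3 of lymphatic endothelium, 0 reached the count limit in the lineage contrast. In immature granule neurons the mature granule genes ran from 0 to 2.60 CPM and the inhibitory genes from 0 to 4.46 CPM. The highest of the CA pyramidal genes there was Grik4 at 34.6 CPM, and the highest of the lymphatic genes was Pdpn at 5.58 CPM. In RG-like progenitors the inhibitory gene Dlx1 was at 38.1 CPM and Pdpn at 22.2 CPM.

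Immature granule neurons of low RNA content, 52 Control and 117 TBI cells with 28.4% and 20.7% median mitochondrial reads, were kept apart. They had 491 CPM of Prox1 in Control and 724 CPM in TBI, between intermediate neuroblasts and immature granule neurons. Zbtb20 was at 4729.7 and 7234 CPM in them. Median UMIs per cell were 1722 and 1589.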

How the data were processed

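The authors counted UMIs per gene and cell with Cell Ranger 3.0.2 on GRCm38/mm10, and the deposited tables hold these raw counts, whole numbers without normalization, 24723113 UMIs in 3086 Control and 31543330 in 5081 TBI barcodes. Tables were assigned to conditions by barcodes that the study lists: 356 of 356 Control and 320 of 320 TBI barcodes were in 1 table only. The study states its animals per group otherwise than the labels.

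Barcodes needed 200 detected genes, their UMI total had to lie no more than 3 median absolute deviations off the median, and what remained was clustered with Seurat 5.3.0 (R 4.3.3) at the settings of the study's methods, without Malat1 and the 10 members: integration on 20 dimensions, 20 principal components, resolution 3.0, then lineage cells at 30, 16 and 0.8. Doublets were called with Scrublet (scanpy 1.11.5), 1.31% and 2.19% of cells, and left in. Clusters were named from fixed markers, with at least 3 detected, and the rules for leaving a cluster unnamed or setting it apart for low RNA (median UMIs under 0.333 of its library's) were set after the clusters were seen. The names are rebuilt and not the authors' own.

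Summed counts gave CPM, with exact Poisson intervals and exact conditional intervals of ratios (Python 3.11.15, scipy 1.17.1). All members in all 14 populations are given. Like genes are the 3 highest correlations among genes of at least 100 CPM in some population. Each list shows up to 4 genes with the largest ratios of immature granule neurons to RG-like progenitors in either direction. Besides these, Id1, Id2 and Id4 are given. Some items that these rules name are not reported here. The calls were tested on simulated Poisson counts. These hold no variation between cells, so the test cannot show how a few cells move a call. Members and lists were chosen with earlier results of these data known. Gene positions come from GENCODE vM21. The sample sheet was not used for values.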

Additional observations from a re-analysis of the deposited data

Results flagged for a closer look

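Nfix differed between the libraries in opposite directions in 2 populations, past 1.5-fold and beyond counting error in each. The ratio of TBI to Control was 2.75 in OPC and 0.60 in mural cells. The difference between the populations was not tested, since each condition is 1 library. In OPC 102 of the 178 TBI UMIs were in 3 cells, and in mural cells the levels within the clusters led by Atp13a5 (31.5 and 30.4 CPM) and Kcnj8 (34.9 and 35.2 CPM) were alike in Control and TBI. The cluster led by Acta2 had 82.2 CPM in Control and 48.7 CPM in TBI, and that led by Ephx3, with 13 Control and 22 TBI cells, had 109 CPM from 7 UMIs in Control and 0 UMIs in TBI.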

How the results depend on the processing

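No paired analysis was possible because the animals of a condition were pooled into 1 library, so the numbered samples have no counts of their own, and leaving out a replicate could not be done either. The count of members higher in immature granule neurons was 5 and lay between 4 and 6 under the alternatives that gave it, except that centring ratios on the median of all genes, which was -0.17 in Control and -0.20 in TBI on the log2 scale, gave 8. Without integration, and at lower resolution, no cluster was named immature granule neurons and this contrast had no value. Nfic was the member lower in every alternative with a value. The 2 pairs higher in TBI became 4 with a mitochondrial limit of 10%, 1 without integration, 1 by the mean of per-cell CPM, 1 at a 2-fold limit and 0 in cells thinned to 2000 UMIs. An alternative added after the data were seen kept populations of at least 50 cells in each library, and gave 0. It left out OPC, with 28 Control cells, so it could not test these 2 pairs. The 1 pair lower became 3 with the mitochondrial limit, 4 without doublets, 4 with ribosomal and mitochondrial genes left out of the clustering, 0 at lower resolution, 0 by the mean of per-cell CPM, 0 in thinned cells, 2 with centred ratios, 2 with Malat1, mitochondrial and ribosomal genes out of the total, 0 at the 2-fold limit and 5 with limits of 50 UMIs in all and 5 in each library. The pairs that came or went are in OPC, Reln neurons, mural cells and astrocytes, and the cause was not tested. The 1 lower pair was Nfia in Reln neurons in place of Nfix in mural cells without integration and within 2 median absolute deviations. Of 1500 recomputed levels, 1168 stayed within the interval of the main value and 44 moved by over 1.5 times, 7 of them at 50 CPM or more, in Prox1 and Zbtb18 of Reln neurons, Bcl11a of stem-like astroglia, Nfib of oligodendrocytes and Nfix of microglia. Thinned to 1000 UMIs, Prox1 was seen in 63.9% of immature granule neurons. Depth limits the values of Bcl11b, whose counts outside immature granule neurons were 18 UMIs or fewer in each population and library.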
